A study of Rattus norvegicus with 10 samples.

Results

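The Gnas locus on rat chromosome 3 was examined across all regions that the deposited methylation table names for Gnas, 11 of 8957 regions. The table holds regions that the authors had called on these same animals for a difference in mean methylation between 2 groups, so the contrast between the groups was used to choose them. In the authors' deposited table the smallest difference at Gnas was 2.66 points and the smallest of all regions 1 point; regions outside the table were not analysed here. Group differences at Gnas are therefore given as a description, and no test of them is independent evidence. The tissue was the hypothalamic arcuate nucleus, a centre that senses metabolic signals and governs feeding, and the assay was reduced representation bisulfite sequencing (RRBS), in which bisulfite conversion shows whether cytosines in CpG-dense enzyme fragments are methylated. The paternal high-fat group was 5 offspring of Wistar males given a high-fat diet, and the paternal chow group was 5 offspring of males given chow. All mothers ate chow, and the fathers arrived at postnatal day 21 and were mated between postnatal days 90 and 100. Litters were adjusted at postnatal day 2 to at most 8 pups. All 10 offspring were switched to a high-fat diet at postnatal day 35 and sampled at postnatal day 70. Both groups thus share the offspring's high-fat diet, and the labels used here give neither sex nor litter. The tissue label could not be checked against expression markers in a methylation table, and the sequencing depth behind a level is unknown.

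Gnas is a complex imprinted locus, meaning that some of its transcripts come from the chromosome of a single parent. It encodes Gs-alpha, the G protein subunit that couples receptors such as the melanocortin 4 receptor, a satiety receptor of the hypothalamus, to production of cyclic AMP. In mouse and human, alternative first exons are joined to shared downstream exons, giving the secretory protein NESP55 from the maternal allele, XL-alpha-s (a large Gs-alpha variant) and the untranslated exon 1A or A/B transcript from the paternal allele, and Gs-alpha from both alleles in most tissues but mainly from the maternal allele in some cells. The promoters of the imprinted transcripts are methylated on the silent allele, so that a mixture of both alleles gives an intermediate level, while the Gs-alpha promoter is free of methylation on both. The deposited annotation lists transcript identifiers without these product names, and the start sites are therefore called the first, the second and the third by their order.

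The reference promoter table of RefSeq (build GRCr8) holds 3 windows named for Gnas, each with 250 bases before and 50 bases after a start site on the plus strand of chromosome 3. They show the letters at annotated start sites, with CpG in capitals, and are not the sequences of the deposited regions:

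window 1, chr3:183489398-183489697: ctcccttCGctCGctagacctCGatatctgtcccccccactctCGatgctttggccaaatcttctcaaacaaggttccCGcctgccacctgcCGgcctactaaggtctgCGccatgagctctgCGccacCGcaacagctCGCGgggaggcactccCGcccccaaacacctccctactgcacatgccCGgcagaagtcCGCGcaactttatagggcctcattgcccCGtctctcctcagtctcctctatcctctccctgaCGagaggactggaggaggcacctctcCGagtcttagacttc

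window 2, chr3:183502993-183503292: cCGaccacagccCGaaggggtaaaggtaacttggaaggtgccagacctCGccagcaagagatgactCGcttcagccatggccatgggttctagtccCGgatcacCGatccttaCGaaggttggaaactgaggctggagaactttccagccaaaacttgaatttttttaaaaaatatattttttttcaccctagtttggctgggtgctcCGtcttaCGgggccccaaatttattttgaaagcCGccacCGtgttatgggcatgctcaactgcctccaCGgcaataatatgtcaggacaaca

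window 3, chr3:183537089-183537388: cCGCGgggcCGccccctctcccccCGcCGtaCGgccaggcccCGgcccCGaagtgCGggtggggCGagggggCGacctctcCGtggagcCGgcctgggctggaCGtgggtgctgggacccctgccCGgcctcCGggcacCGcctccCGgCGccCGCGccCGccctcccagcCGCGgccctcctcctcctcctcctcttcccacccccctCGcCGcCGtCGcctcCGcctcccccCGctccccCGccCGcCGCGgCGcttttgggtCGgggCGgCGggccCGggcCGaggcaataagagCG

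Window 1 held 18 CpGs, window 2 held 12 and window 3 held 41 in 300 bases, against a median of 7 over all 33469 windows of that table. At least as many CpGs as in window 3 were found in 2.83% of all windows, and the same share was 27.5% for window 1 and 37.1% for window 2. A CpG was present in 94.5% of all windows. The motif CCGG, which reads the same on both strands, contains a CpG and is the cut site of the enzyme MspI commonly used in this assay, occurred 2, 1 and 6 times in windows 1, 2 and 3, and 51.4% of all windows held it. The starts of these windows lie 13595 and 34096 bases apart on GRCr8, whereas the start sites implied by the deposited distances lie about 10716 and 34918 bases apart. The build of the deposited coordinates is not given in the sources used here, so no deposited region was placed on these letters.

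Along the chromosome the 11 Gnas regions fell into 4 groups by the deposited annotation, and they are numbered in that order. Region 1 (172374816 to 172374863, 11 CpGs) lay −117 bases from the first start site (transcript ENSRNOT00000035916, gene identifier ENSRNOG00000025889). All other regions carried the gene identifier ENSRNOG00000047374. Regions 2 to 6 belonged to the second start site (transcript ENSRNOT00000090989) and spanned 2720 bases. Region 2 (172385163 to 172385233, 13 CpGs) lay at its promoter at −474 bases. Regions 3 (172386977 to 172387285, 16 CpGs), 4 (172387549 to 172387658, 15 CpGs) and 5 (172387663 to 172387778, 16 CpGs) lay in exon 1 of 15, and region 6 (172387822 to 172387883, 13 CpGs) in exon 2 of 15. Regions 7 (172418135 to 172418201, 12 CpGs), 8 (172418201 to 172418311, 22 CpGs), 9 (172418695 to 172418765, 15 CpGs) and 10 (172418804 to 172418920, 12 CpGs) lay in intron 2 of the second transcript, between −2423 and −1729 bases from the third start site (transcript ENSRNOT00000071215). Region 11 (172421113 to 172421202, 10 CpGs) lay 567 bases beyond the third start site, in an annotated intron 3 of its transcript.

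The level of methylation lay in steps along Gnas. Regions were chosen on the group difference, which was tied to level. Its median absolute size was 5.73 points at the 571 other regions between 20% and 80%, against 1.74 points over all regions. Levels are therefore described only within the chosen regions. Over all 10 animals, region 1 at the first start site averaged 3.89% ± 3.28 (SD, n = 10). The 5 regions of the second start site averaged between 24.4% and 39.2%. Every animal had a higher level at region 2 than at region 1, which lies 10300 bases away. Upstream of the third start site, regions 7, 8 and 9 averaged 27.1% ± 5.65, 26.6% ± 5.96 and 31.4% ± 5.34 (SD, n = 10 each). Region 10 begins 39 bases after region 9 ends and averaged 10.1% ± 5.97 (SD, n = 10), lower than region 9 in all 10 animals. Region 11 averaged 3.01% ± 3.91 (SD, n = 10) and lay below region 10 in all 10 animals.

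**Figure D1:**
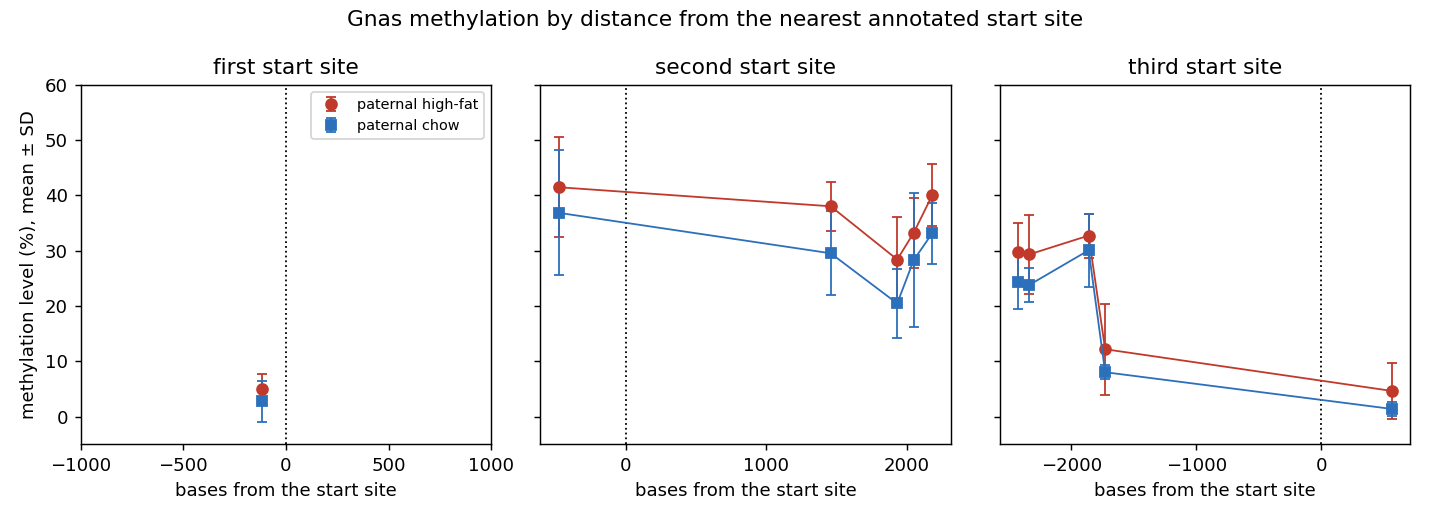
Methylation level (percent, mean ± SD, n = 5 animals a group) of the Gnas regions against the distance in bases from the nearest annotated start site, in a panel for each start site. Red circles are paternal high-fat and blue squares paternal chow offspring. Levels are intermediate around the second start site and from −2423 to −1861 bases of the third, and low beside the first start site and 567 bases beyond the third.

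In order of level, region 2 (39.2% ± 9.96) came first, followed by regions 6, 3, 9, 5, 7, 8 and 4, and neighbours among these 8 differed by between 0.465 and 3.71 points, less than the SD over the 10 animals of either region. A gap of 14.3 points separated region 4 (24.4% ± 7.79) from region 10, with region 4 higher in all 10 animals. Region 10 exceeded region 1 by 6.22 points, in 8 of 10 animals, and regions 1 and 11 differed by 0.875 points. Levels between 20% and 80% were found at 8 of the 11 Gnas regions, whereas 6.46% of all regions of the table lay in that range. The median level was 27.1% over the Gnas regions and 2.27% over all regions.

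At all 11 Gnas regions the paternal high-fat mean lay above the paternal chow mean, by 2.28 to 8.51 percentage points. Of all regions 71% were higher, and because the regions were chosen on this contrast nothing is read from the count at Gnas. Averaged over the 11 regions, the locus level was 26.8% ± 4.56 in paternal high-fat and 21.7% ± 3.08 in paternal chow offspring (SD, n = 5 each), a difference of 5.10 points. The groups overlapped, and in bulk tissue a different mix of cells and a different level within cells cannot be told apart. By animal, the locus level was 21.2% in 22HFB, 33.9% in 22HFR, 26.1% in 24HFB, 26.1% in 26HFB and 26.7% in 28HFB of the paternal high-fat group, against 22.4% in 2HFB, 18.6% in 4HFB, 20.6% in 6HFBB, 26.7% in 6HFB and 20.2% in 8HFB of the paternal chow group. Of the 25 pairs of animals across the groups, the paternal high-fat animal was higher in 21, and only 2 paternal high-fat animals, 22HFR and 28HFB, lay above the paternal chow animal 6HFB. Without 22HFR the difference was 3.33 points, and without 22HFB it was 6.51 points.

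**Figure D2:**
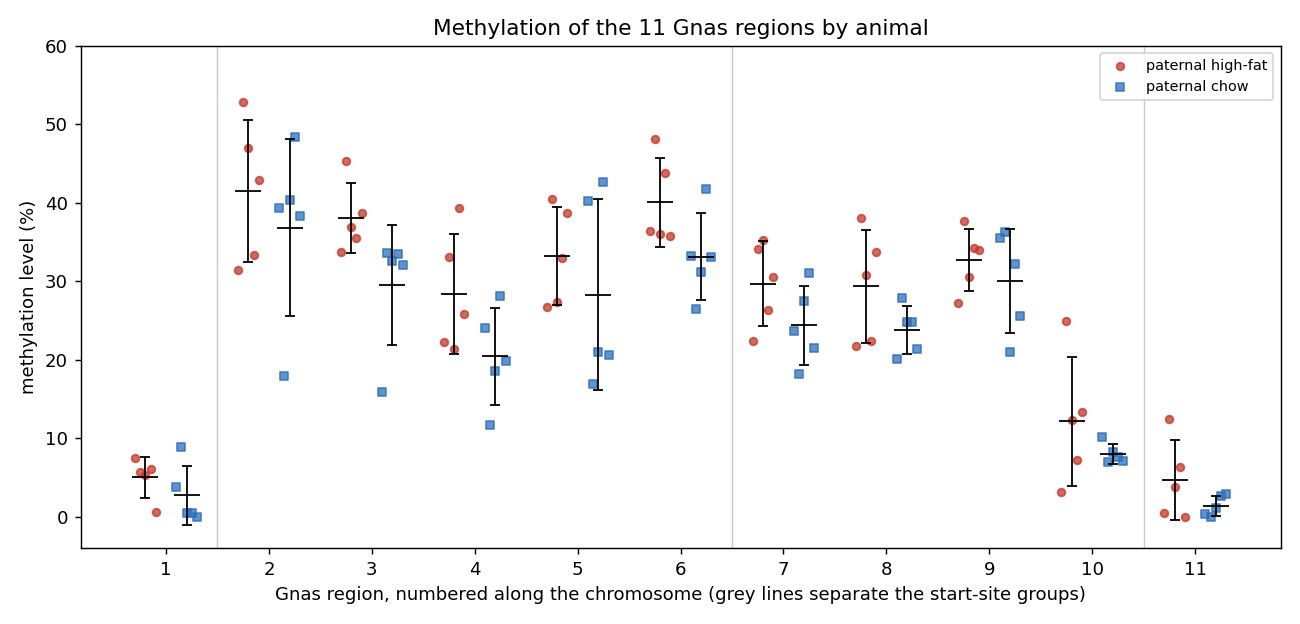
Methylation level (percent) of each Gnas region in each animal, with paternal high-fat (red circles) left of paternal chow (blue squares); black bars are group mean ± SD, n = 5 each. The groups overlap at every region except region 3, where all paternal high-fat animals lie above 33.6%, the highest paternal chow animal.

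No Gnas region passed a test across animals after adjustment. With limma on the whole table and Benjamini-Hochberg adjustment at 0.05, 0 of 11 Gnas regions and 0% of all regions were called, and the Gnas regions had adjusted p between 0.235 and 0.507. At an unadjusted p below 0.05, limma gave 0 of the 11, against 20.9% of all regions. That count was 4 without 22HFB, 2 without 4HFB, 2 without 6HFB, 1 without 24HFB and 1 without 28HFB. The same sets gave 2072, 1422, 1498, 1855 and 1841 of all 8957 regions in that order, against 1875 with all animals. Without 22HFR, 26HFB, 2HFB, 6HFBB or 8HFB the count at Gnas stayed 0, and between 1392 and 1622 of all regions were below 0.05. A two-sided exact permutation test per region gave 1 of the 11 (region 3), against 24.9% of the 8838 regions with complete values, and 0 after adjustment. Region 3 already had the smallest p that 5 against 5 animals can give (0.00794 in this exact test), so the adjusted count could not have been higher there. In the authors' deposited table, 0 of 11 Gnas regions had a q-value below 0.05, against 0.848% of all regions, and the smallest q at Gnas was 0.274, at region 8. The Mann-Whitney p in the authors' deposited table was below 0.05 at 7 of the 11 Gnas regions, against 67.8% of all regions, and the deposited q was 1 at 9 of them, against 97.9% of all regions. The smallest of these Mann-Whitney p, 5.48e-09 at region 6, lies below the 0.00794 that an exact permutation over 5 against 5 animals can reach, so it is not a test over animals alone. The 2 groups did not overlap at 1 of the 11 regions, against 5.15% of all regions in either direction and 3.93% with the paternal high-fat group higher.

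At the first start site, region 1 had 7.50%, 5.68%, 5.35%, 6.05% and 0.568% in paternal high-fat animals 22HFB, 22HFR, 24HFB, 26HFB and 28HFB, against 3.81%, 8.89%, 0.535%, 0.505% and 0% in paternal chow animals 2HFB, 4HFB, 6HFBB, 6HFB and 8HFB. Each group held low animals, and the highest value of all was that of paternal chow animal 4HFB. The means were 5.03% ± 2.63 and 2.75% ± 3.75 in the paternal high-fat and paternal chow groups (SD, n = 5 each), a difference of 2.28 points. It was 3.82 points without 4HFB and 1.33 points when animals with the same leading number were averaged.

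At the second start site the 5 regions together averaged 36.3% ± 5.11 in paternal high-fat and 29.7% ± 6.26 in paternal chow offspring (SD, n = 5 each), and the ranges were 30.1% to 44.0% and 21.3% to 38.9%. Regions 3 and 4 in exon 1 had the largest differences of the locus, region 3 being first over all animals and in 5 of the 10 sets with an animal left out, and region 4 in the other 5. In the animals in the same order, region 3 had 33.7%, 45.3%, 37.0%, 35.5% and 38.7% in the paternal high-fat group, against 16.0%, 33.6%, 32.6%, 33.5% and 32.1% in the paternal chow group. The groups were separate, but the lowest paternal high-fat and the highest paternal chow value were nearly the same, and 2HFB stood far below its group. The means were 38.0% ± 4.47 and 29.5% ± 7.62 in the paternal high-fat and paternal chow groups (SD, n = 5 each), and they lay 8.51 points apart, or 5.11 without 2HFB.

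Region 4, 264 bases further along exon 1, had 22.3%, 33.2%, 21.4%, 39.3% and 25.9% in paternal high-fat animals, against 24.1%, 11.7%, 18.5%, 28.2% and 19.8% in paternal chow animals. Here 26HFB and not 22HFR was highest, and the difference of 7.95 points (28.4% ± 7.67 against 20.5% ± 6.18, SD, n = 5 each) was 5.22 points without 26HFB. Region 6 in exon 2 had 36.4%, 48.2%, 36.1%, 43.8% and 35.8% in paternal high-fat animals, against 33.3%, 26.5%, 31.2%, 41.8% and 33.1% in paternal chow animals. At region 6, 6HFB was the only paternal chow animal above any paternal high-fat animal, and the means were 40.1% ± 5.65 in the paternal high-fat and 33.2% ± 5.54 in the paternal chow group (SD, n = 5 each).

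Regions 2 and 5 varied most between animals. Region 2 at the promoter had 31.5%, 52.8%, 47.0%, 33.3% and 42.9% in paternal high-fat animals, against 39.4%, 17.9%, 40.3%, 48.4% and 38.3% in paternal chow animals. Only 22HFR lay above all paternal chow animals and only 4HFB below all paternal high-fat animals. The difference of 4.63 points was smaller than the SD of either group (9.06 in paternal high-fat and 11.3 in paternal chow). It was −0.0959 points without 4HFB and 1.80 points without 22HFR, but 7.14 points without 22HFB and 7.51 points without 6HFB. Region 5 ranged from 26.7% to 40.4% in paternal high-fat and from 16.9% to 42.6% in paternal chow animals, and its means, 4.95 points apart, were between 2.10 points apart (without 4HFB) and 8.53 points apart (without 6HFB) when an animal was left out.

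Upstream of the third start site, regions 7 to 10 together averaged 26.01% ± 5.72 in paternal high-fat and 21.6% ± 1.95 in paternal chow offspring (SD, n = 5 each). Region 8, which held the most CpGs at Gnas, had 21.7%, 38.1%, 30.8%, 22.3% and 33.8% in paternal high-fat animals, against 20.2%, 27.9%, 24.9%, 24.8% and 21.4% in paternal chow animals. The paternal high-fat animals 22HFB and 26HFB lay inside the paternal chow range and the other 3 above it. The difference of 5.51 points was 3.33 points without 22HFR.

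The adjoining region 7 ranged from 22.4% to 35.2% in paternal high-fat and from 18.3% to 31.0% in paternal chow animals, which left its means 5.34 points apart. Region 9 ranged from 27.2% to 37.7% and from 20.9% to 36.2% in the paternal high-fat and paternal chow groups, with a difference of 2.66 points. This was 0.376, 1.43 and 1.52 points without 6HFBB, 22HFR and 8HFB, and 4.20, 4.05 and 4.01 points without 4HFB, 22HFB and 2HFB. These ranges overlapped widely.

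At region 10, where the level is lower, paternal high-fat animals had 3.10%, 24.9%, 12.4%, 7.22% and 13.3%, against 10.1%, 6.94%, 8.27%, 7.66% and 7.14% in paternal chow animals. The paternal high-fat group held both the lowest and the highest animal, and its SD was 8.23 points against 1.29 points in the paternal chow group. Its means lay 4.16 points apart, or 0.972 without 22HFR and 6.43 without 22HFB. Beyond the third start site, region 11 had 0.535%, 12.5%, 3.82%, 6.33% and 0% in paternal high-fat animals, against 0.313%, 0%, 1.12%, 2.60% and 2.89% in paternal chow animals. Again 22HFR was the highest animal, and the difference of 3.26 points was 1.29 points without it.

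**Figure D3:**
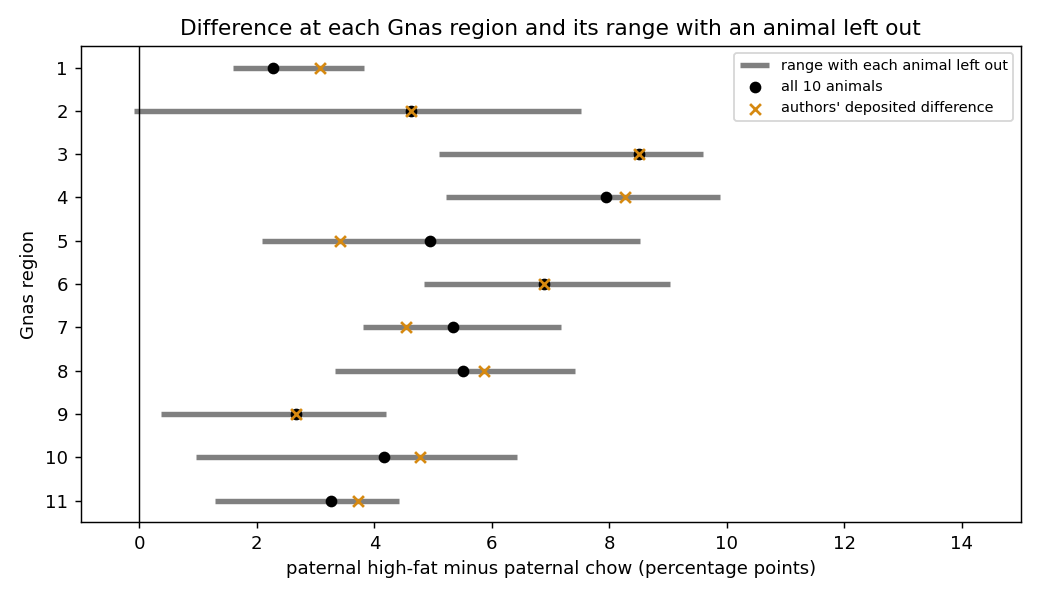
Difference in methylation level (percentage points, paternal high-fat minus paternal chow) at each Gnas region. Black points use all 10 animals, grey bars span the values with each animal left out in turn, and crosses are the difference in the authors' deposited table. All black points lie above 0, and the bar of region 2 reaches −0.0959.

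The same few animals set the extremes across Gnas. The paternal high-fat animal 22HFR was the highest of its group at 8 of 11 regions and of all 10 animals at 7, and 22HFB was the lowest of its group at 7. These animals carry the same leading number in the deposited names. In the paternal chow group, 4HFB was the lowest at 7 regions and the highest at 4, and 6HFB was the highest at 5. The other regions of the table showed 22HFR highest too, with a mean level of 8.21% over them, against 6.46% to 7.47% in the other paternal high-fat animals and 5.70% to 6.44% in the paternal chow animals. The part of this difference between animals in the Gnas values was not tested. When each animal's median over all regions was subtracted, the locus difference was 4.07 points, all 11 regions were higher, and the groups were separate at 0 of them. That median is set by regions at low levels, the median level of all regions being 2.27%. The 571 other regions at 20% to 80% differed by 4.04 points on average. Centring therefore could not show whether a shift at intermediate levels is shared.

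Set beside regions of like level, the Gnas differences were of common size. The 8 Gnas regions between 20% and 80% had a median difference of 5.43 points, against 5.17 points over the 571 other regions in that range, of which 79.9% were higher. Their median SD was 5.97 points in paternal high-fat and 6.41 points in paternal chow animals, against 6.10 and 5.14 points at the other regions. Averaged per animal over those 571 regions, the level was 40.0% ± 1.87 in paternal high-fat and 35.9% ± 1.19 in paternal chow offspring (SD, n = 5 each). Those regions were chosen on the same contrast and are many more than the Gnas regions, so the smaller spread of their mean is not set against that of Gnas.

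**Figure D4:**
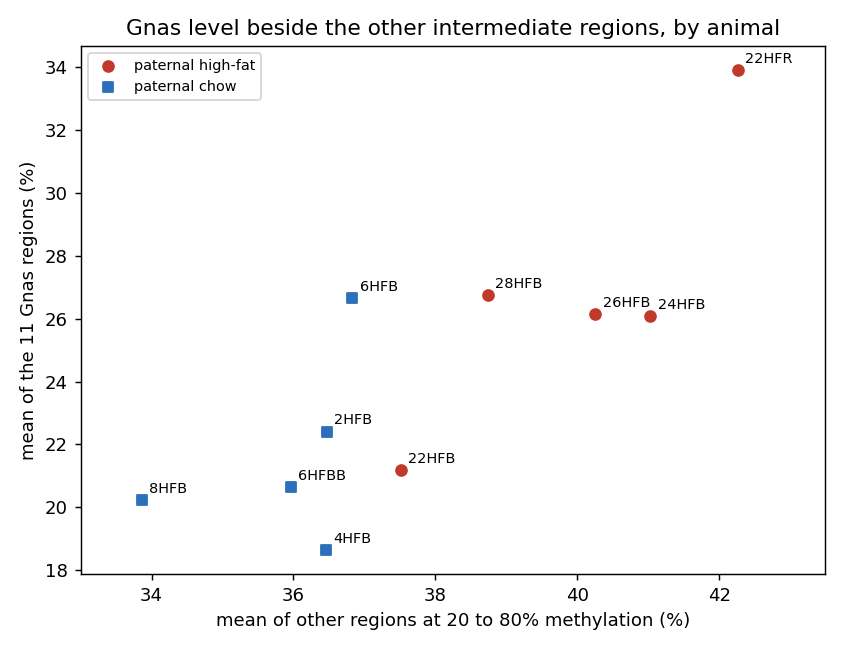
Mean level of the 11 Gnas regions (percent, vertical) against the mean of the 571 other regions at 20% to 80% methylation (percent, horizontal), a point for each animal. Paternal high-fat animals (red circles) lie from 37.5% to 42.3% on the horizontal axis, and paternal chow animals (blue squares) from 33.9% to 36.8%, while on the vertical axis 22HFB lies at 21.2% and 6HFB at 26.7%.

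Regions flanking the locus did not share a direction. Upstream, the nearest region of the table was named for Npepl1, 179707 bases away, and averaged 11.7% ± 4.95 in paternal high-fat and 9.92% ± 1.92 in paternal chow offspring (SD, n = 5 each). Downstream, the nearest was that of Ctsz, which encodes the lysosomal protease cathepsin Z, 116531 bases away, at 11.04% ± 2.96 in paternal high-fat and 16.0% ± 4.65 in paternal chow offspring (SD, n = 5 each).

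Of 72 listed imprinted genes, 19 had 44 regions, of which 40 lay higher and 4 lower in offspring of high-fat-fed fathers, with a median difference of 2.62 points against 1.41 points over all regions. Gnas supplied 11 of these regions. Without it 29 regions were higher and 4 lower, which is 87.9% higher against 71% of all regions, and the median was 2.26 points. These 33 regions came from 18 genes, and 8 of them lay between 20% and 80%. Of the 571 regions other than Gnas in that range, 79.9% were higher, with a median difference of 5.17 points. Whether the level, or several regions of a gene, account for the share was not tested. Among the others, Grb10, which encodes an adaptor that restrains insulin receptor signalling, had a region in its first intron at 38.7% ± 7.01 in paternal high-fat and 26.7% ± 10.7 in paternal chow offspring, and another at 32.3% ± 2.59 and 29.5% ± 9.63 in the same order (SD, n = 5 each). Both Grb10 regions had overlapping groups, and the difference of 2.84 points at the second was −0.601 points without 6HFB and 6.04 points without 6HFBB. A region named for Cdkn1c, a cyclin-dependent kinase inhibitor gene, lay between genes at 15474 bases from its start site and averaged 17.2% ± 5.28 in paternal high-fat and 9.14% ± 4.25 in paternal chow offspring (SD, n = 5 each), and the other Cdkn1c region differed by 2.58 points. Zrsr1, which encodes a splicing factor-related protein, had regions in opposite directions, with differences of 11.9 and −11.1 points. The first stood at 36.4% ± 7.63 in paternal high-fat and 24.4% ± 3.60 in paternal chow offspring (SD, n = 5 each). The second stood at 33.2% ± 7.45 and 44.3% ± 12.7 in the same order. The groups overlapped at both, and the second difference was −7.51 points without 8HFB and −15.3 points without 6HFB.

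Genes that act with Gs-alpha in cyclic AMP signalling lay near the table as a whole. Of 77 listed, 30 had 53 regions, 40 higher (75.5%) and 13 lower, with a median difference of 1.39 points, and 0 of the 53 had a level between 20% and 80%. Pde4a, which encodes a phosphodiesterase that degrades cyclic AMP, had adjacent intronic regions in opposite directions, at 16.7% ± 4.48 in paternal high-fat against 12.1% ± 4.45 in paternal chow and at 6.81% ± 2.69 against 8.96% ± 2.74 in the same order (SD, n = 5 each). All 5 regions of Crhr1, the Gs-coupled receptor of corticotropin-releasing hormone, were higher, by 1.003 to 4.56 points. Their group means were low, between 0.915% and 5.47%. At the region with the largest difference 24HFB stood at 12.7%, and the difference was 2.75 points without it. The groups overlapped at the other Crhr1 regions. The promoter region of Gng4, a G protein gamma subunit gene, averaged 4.12% ± 6.65 in paternal high-fat and 0.746% ± 0.365 in paternal chow offspring (SD, n = 5 each), but 22HFR stood at 15.9%, and the means were 3.37 points apart with it and 0.416 without it.

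**Figure D5:**
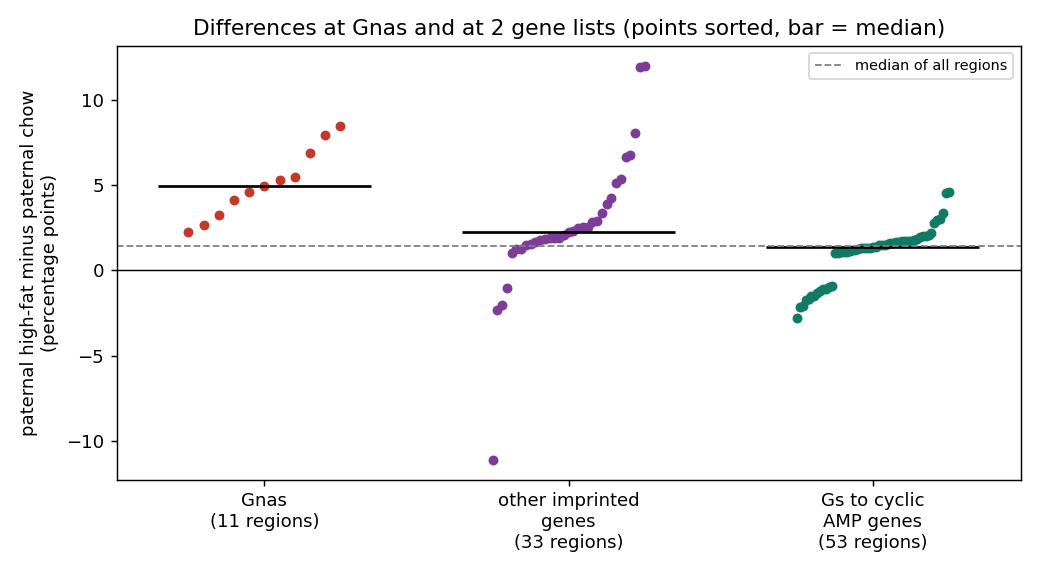
Difference in methylation level (percentage points, paternal high-fat minus paternal chow) at each region of Gnas (11), of the other listed imprinted genes (33) and of the listed Gs to cyclic AMP genes (53), sorted within each set. Bars are medians, 4.95, 2.26 and 1.39 points, and the dashed line is the median of all regions, 1.41 points.

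The regions most like Gnas in their variation between animals were sought with the locus mean and each region's level centred within each group, over 10 animals. Of 8791 regions of other genes, 64.0% had a positive Pearson r and 2009 had r above 0.5, the median being 0.168. The 5 highest were regions of Cdk16, a cyclin-dependent kinase gene on the X chromosome (r = 0.958), Ehmt2, which encodes the histone methyltransferase G9a (r = 0.948), Taf1d, a gene of the RNA polymerase I machinery (r = 0.938), Eif2ak3, which encodes the stress kinase PERK (r = 0.935), and Pxylp1, a gene of proteoglycan synthesis (r = 0.931). All share the same libraries, and these values are the top of a search, given without a p. In each of these 5 regions 22HFR was the highest animal, at 21.7%, 7.58%, 8.16%, 11.6% and 5.28% in the order named.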

How the data were processed

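The deposited table gives, per the file headers, methylation fractions averaged over each region for 5 paternal high-fat and 5 paternal chow animals, the authors' group means and difference, and the authors' q-values and Mann-Whitney and Kolmogorov-Smirnov p-values from metilene. Per the submitters' processing notes, reads passed through Trim Galore, Bismark and Bowtie; the sources used here give no versions, build, coverage filter or settings. On the file itself, every region had at least 10 CpGs and a deposited absolute difference of at least 1 point. No counts or coverage were included, so depth is unknown and errors are SDs over animals. Fractions were turned into percent. The header line above the columns gives the group of each animal, while the column names (animals) could not be tied to single sample titles. Each animal was taken as a replicate of its group. Whether littermates are among them is unknown, and p-values measure only the spread between these samples. Coordinates are printed as deposited.

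All 8957 regions were fitted with limma 3.58.1 in R 4.3.3 (mean-variance trend, Benjamini-Hochberg at 0.05), tested on simulated data; of 89570 values 127 were missing, 0 of them at Gnas. The exact permutation test used all 252 arrangements, with 0.00794 as the smallest possible p. Other steps used Python 3.11.15, pandas 2.3.3 and NumPy 2.4.6, and figures matplotlib 3.10.9. The members and lists were chosen with earlier results of these data known. Named were all Gnas regions, the 5 regions most correlated with the locus mean, and up to 3 genes of each list with the largest difference. Alternatives were leaving out each animal, a logit scale with an offset of 0.01, averaging animals that share a leading number, centring on each animal's median, the authors' group means, at least 15 CpGs, weighting by CpGs, other variance settings and an exact test.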

Additional observations from a re-analysis of the deposited data

Results flagged for a closer look

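The level of paternal chow animal 2HFB at region 3 of Gnas was 16.0%, while the other paternal chow animals lay between 32.1% and 33.6%. The gap to the nearest animal was 0.912 of the range of the group, above the critical value of Dixon's test for 5 samples. It was the only such value in 24 sets of 5 animals examined (11 regions in each of 2 groups, and the locus mean), and chance gives about 1 in 20. At regions 2, 4, 5 and 6 of the same start site, 2HFB had 39.4%, 24.1%, 40.3% and 33.3%, each inside the range of the other paternal chow animals.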

How the results depend on the processing

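The direction of the locus difference was the same under every alternative run, with 5.05 points on the logit scale, 5.40 with animals of the same leading number averaged, 4.07 after centring, 5.12 from the authors' deposited group means, 5.91 over the regions with at least 15 CpGs and 5.27 weighted by CpGs, against 5.10 as reported. Centring subtracted a median set by regions at low levels. Leaving out each animal gave 3.33 (without 22HFR) to 6.51 points (without 22HFB). The number of Gnas regions higher was 11 in each alternative over all regions except that without 4HFB, where region 2 turned to −0.0959 points and 10 were higher; of regions with at least 15 CpGs, 5 were higher, since only 5 were counted. The count of regions with separate groups, 1 as reported, was 0 after centring and 1 to 2 with an animal left out, the second being region 6 without 6HFB. No limma alternative called a Gnas region after adjustment, and the lowest and highest counts with an animal left out were 0. At an unadjusted p below 0.05, limma gave 0 to 4 of the 11 with an animal left out. The same sets gave 1392 to 2072 of all 8957 regions. It gave 1 of the 11 without the variance trend, with robust variance or on the logit scale. All regions then gave 1790, 1856 and 2294 in that order. The exact test could not have passed at region 3 after adjustment. On the logit scale the differences at regions 10 and 11 were 2.39 and 1.73 points. Without Gnas the imprinted list had 29 regions higher in place of 40. No paired analysis was possible because the columns carry none of the replicate numbers of the sample titles. The titles also do not state that animals with equal numbers in the groups were pairs. Without counts, no limit set by depth can be stated.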

Other observations

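The authors' deposited group means differed from the means of the animals' levels at some Gnas regions. At region 1 the deposited difference was 3.08 points and that of the animals' means 2.28 points, and at region 5 the deposited difference was 3.41 points and that of the animals' means 4.95 points. Of the 5565 gene names of the table, 9 had at least 11 regions, Gnas being among 3 with that many annotated as protein-coding, and the median name had 1.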
